A study of Mus musculus with 24 samples.

Results

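Sult1d1, Hdc, Lrp2, Cdh16 and Mycn are 5 genes whose uterine transcripts differed between wild-type mice and progesterone receptor knockouts (PRKO) when no progesterone had been given. They were chosen by their signals on the vehicle arrays, where the genotypes differed at both times of the study, and they are 5 of the 8251 genes that a probe set of the array names alone. Their probe sets number 6 of 12422, 1 for each gene and 2 for Mycn. Sult1d1, Hdc and Lrp2 gave a lower signal in PRKO vehicle uteri, and Cdh16 and Mycn a higher one.

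The progesterone receptor is a nuclear receptor that, once it has bound progesterone, regulates transcription, and in the uterus it prepares epithelium and stroma for implantation. Ovariectomy removes the main source of progesterone, so a genotype difference in vehicle uteri is one seen without the injected ligand. Of the genes described here, Sult1d1 encodes a cytosolic sulfotransferase that attaches sulfate to phenols and catecholamines. Hdc encodes histidine decarboxylase, the enzyme that makes histamine and is known from mast cells and from the uterine epithelium before implantation. Lrp2 encodes megalin, a large endocytic receptor of absorptive epithelia that takes up carrier-bound vitamins and hormones. Cdh16 encodes the kidney-specific cadherin, an adhesion protein of tubule epithelium, and Mycn encodes N-Myc, a transcription factor of growing tissues.

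Wild-type and PRKO mice were ovariectomized at 6 weeks of age and, 2 weeks later, injected every 12 h with sesame oil vehicle or with progesterone (P4) in sesame oil at 1 mg per mouse. Uteri were taken 4 h after the first injection, or 4 h after the fourth, called 40 h here. The 8 groups were wild-type vehicle, PRKO vehicle, wild-type P4 and PRKO P4 at each time, with 3 Affymetrix arrays each and 24 in all. Each pool held RNA of 5 mice of a genotype and treatment. It is not stated whether a group's 3 arrays carry separate pools, so every error and p-value below measures a spread between arrays, which may be technical. Time and the number of injections change together. The sources used here do not say which part of the receptor gene was disrupted or in which strain.

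Values are deposited signals on a linear scale, and log2 differences were taken after scaling each array and adding 32, which compresses the differences of dim probe sets. The array medians lay between 323.2 and 342.6. The ratio of the 3' to the 5' Gapdh probe sets, which can rise where RNA is degraded, was 3.675 on wild-type vehicle replicate 2 and 3.248 on wild-type P4 replicate 2, both of 4 h, against 1.235 to 1.859 on the other 22 arrays. The same ratio of the actin probe sets was 1.416 and 1.298 on these arrays. It was highest on wild-type vehicle replicate 1 (1.963) and PRKO P4 replicate 1 (1.756) of 4 h, so the controls did not mark the same arrays. The probe set of Pgr, the targeted gene, was dim (percentile 22.3 of mean signal) and had the lower mean in PRKO uteri in all 4 pairs of groups. The genotypes did not overlap in vehicle uteri at 4 h (143.2 to 150.7 against 124.7 to 130.9) or under P4 at 40 h (146.3 to 169.3 against 115.5 to 130.5), and overlapped in the other pairs. Under P4 at 4 h its mean was 123.1 ± 16.7 (SD, n = 3) for wild type against 116.8 ± 4.11 for PRKO, and at 40 h 158 ± 11.5 against 121 ± 8.25 (limma adjusted p = 0.955 and 0.0656). Neither difference under P4 passed the test, and whether its probes fall inside the disrupted stretch is not known here.

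RefSeq promoter windows on the GRCm38.p6 build, from 250 bases before to 50 bases after a gene's start, were matched for 4 of the 5 genes, and those of Hdc, Lrp2 and Sult1d1 are shown because Hdc and Lrp2 moved most alike while Sult1d1 departed from them after P4. Each is written 5′ to 3′ on the minus strand, with every match to a searched motif in capitals. Hdc lies at chr2:126618629-126618928, Lrp2 at chr2:69585980-69586279 and Sult1d1 at chr5:87568957-87569256.
Hdc: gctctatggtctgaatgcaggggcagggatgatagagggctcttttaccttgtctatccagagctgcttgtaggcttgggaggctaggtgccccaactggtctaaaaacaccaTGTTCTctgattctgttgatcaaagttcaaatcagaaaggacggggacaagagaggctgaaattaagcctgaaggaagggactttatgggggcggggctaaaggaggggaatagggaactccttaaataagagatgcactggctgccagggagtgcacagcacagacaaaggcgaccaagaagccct
Lrp2: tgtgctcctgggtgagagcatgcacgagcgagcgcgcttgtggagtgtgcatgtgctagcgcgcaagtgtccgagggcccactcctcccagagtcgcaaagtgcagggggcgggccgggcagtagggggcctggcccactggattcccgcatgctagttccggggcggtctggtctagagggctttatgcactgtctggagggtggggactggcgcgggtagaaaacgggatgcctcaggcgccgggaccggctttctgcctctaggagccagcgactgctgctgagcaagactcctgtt
Sult1d1: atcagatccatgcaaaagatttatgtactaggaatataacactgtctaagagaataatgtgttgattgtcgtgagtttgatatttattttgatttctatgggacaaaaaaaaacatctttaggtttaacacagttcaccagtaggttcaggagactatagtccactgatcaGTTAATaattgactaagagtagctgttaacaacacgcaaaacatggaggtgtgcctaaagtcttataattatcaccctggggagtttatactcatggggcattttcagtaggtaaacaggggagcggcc
The motifs searched on both strands were the half-site AGAACA of the progesterone and glucocorticoid receptors and its inverted repeat (AGAACA, any 3 bases, TGTTCT), the estrogen receptor half-site AGGTCA and inverted repeat (GGTCA, any 3 bases, TGACC), the E-box CACGTG bound by Myc proteins, the HNF1 half-site GTTAAT, the CCAAT box and the GATA site AGATAA. Each inverted repeat overlaps its own half-site or the core of it. The Hdc window held 1 AGAACA half-site, read as TGTTCT, and 19% of all 32851 windows hold one. The Sult1d1 window held 1 GTTAAT, and so did the Mycn window at chr12:12941787-12942086, against 7.1% of all windows. The Lrp2 window held none of the motifs. The windows differed in base composition, with 37% G and C for Sult1d1, 50.7% for Hdc, 56.7% for Mycn and 65% for Lrp2, and with 3, 3, 14 and 20 CG dinucleotides. A match is a string of letters in a window and not a measured binding site.

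The values that chose the genes are those of the vehicle arrays, and nothing is supported with them. When all 24 arrays were fitted, 0.185% of probe sets had an adjusted p under 0.05 between vehicle uteri at 4 h and 0.0644% at 40 h. In the same direction at both times there were 6 of 12422 (0.0483%), namely 1 for each of the 5 genes and that of the metallothionein gene Mt2, which is no member. These shares describe the choice, which used the same values, and are no test of the genes. Mycn and Mt2 lay closest to that threshold, both at 40 h. Mt2 gave a mean vehicle signal of 4526 in wild-type and 2205 in PRKO uteri at 4 h.

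Sult1d1 gave a signal of 518.5, 431.8 and 472.2 on the 3 wild-type vehicle arrays at 4 h and of 152.7, 124.7 and 190.5 on the PRKO vehicle arrays. At 40 h the values were 341.8, 437.5 and 436 in wild-type and 162, 166.3 and 163.5 in PRKO vehicle uteri. No PRKO vehicle array reached the lowest wild-type one at either time, a separation in either direction that 6.52% of all probe sets had at 4 h and 10.7% at 40 h. The log2 difference, PRKO minus wild type, was −1.44 ± 0.13 (standard error) at 4 h and −1.15 ± 0.13 at 40 h.

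Hdc was the brightest of the 5 probe sets, at percentile 86.3 of mean signal. Its vehicle signal was 1509, 854.4 and 1523 in wild-type and 590.7, 399.8 and 442.7 in PRKO uteri at 4 h. It was 1703, 1107 and 840 in wild-type and 484.5, 507.6 and 330.4 in PRKO uteri at 40 h. The wild-type arrays spread widely at both times but stayed above every PRKO array. The difference was −1.35 ± 0.23 at 4 h and −1.36 ± 0.23 at 40 h.

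Lrp2 gave 366.5, 260.1 and 556.5 in wild-type and 176.7, 147.8 and 123.4 in PRKO vehicle uteri at 4 h. At 40 h it gave 662.5, 387.1 and 350.7 in wild-type and 148.4, 167 and 136.2 in PRKO vehicle uteri. As for Hdc, the wild-type arrays differed among themselves more than the PRKO arrays did. The difference was −1.18 ± 0.20 at 4 h and −1.40 ± 0.20 at 40 h.

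Cdh16 went the other way, with 176.5, 222.5 and 159.1 in wild-type and 376.3, 537.7 and 653 in PRKO vehicle uteri at 4 h. At 40 h its signal was 216.4, 256.5 and 276.9 in wild-type and 512.4, 451.5 and 454.3 in PRKO vehicle uteri. All PRKO vehicle arrays lay above all wild-type ones. The difference was 1.32 ± 0.15 at 4 h and 0.84 ± 0.15 at 40 h.

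For Mycn the brighter probe set gave 218.1, 245.5 and 165.5 in wild-type and 331.3, 404.2 and 384 in PRKO vehicle uteri at 4 h. At 40 h it gave 228.1, 181.5 and 195.7 in wild-type and 353.8, 337.5 and 338.8 in PRKO vehicle uteri. The genotypes did not overlap, and the difference of 0.75 ± 0.12 at 4 h and 0.69 ± 0.12 at 40 h was the smallest of the 5 genes at each time. The other Mycn probe set lay at the floor of the array, with group means between 2.694 and 5.128, and showed no order between groups (0.05 ± 0.10 and −0.04 ± 0.10). Without both arrays of high Gapdh ratio, an alternative chosen after the data were seen, the 4 h differences were −1.47 for Sult1d1, −1.59 for Hdc, −1.40 for Lrp2, 1.46 for Cdh16 and 0.88 for the brighter Mycn probe set.

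**Figure D1:**
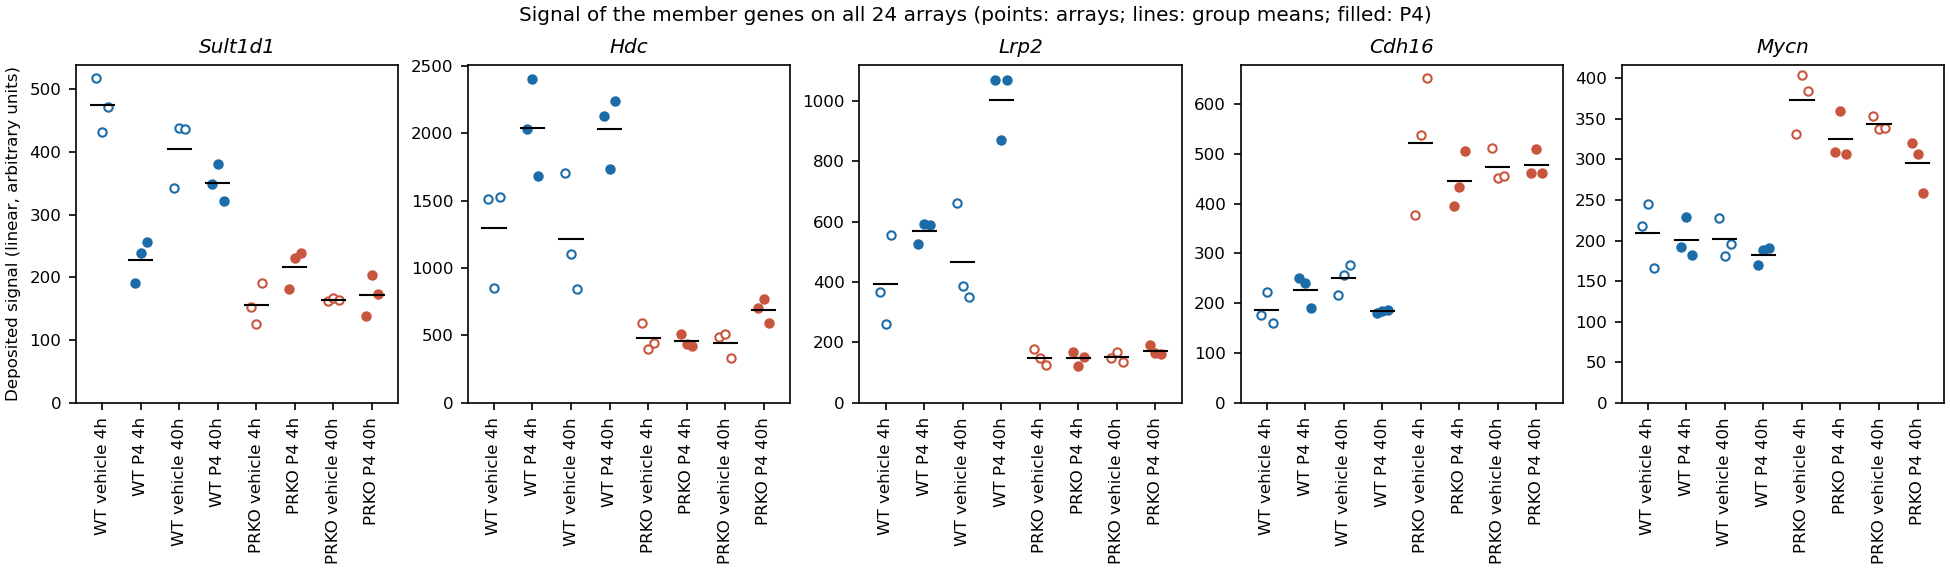
Deposited signal (linear, arbitrary units) of Sult1d1, Hdc, Lrp2, Cdh16 and the brighter Mycn probe set on the 24 arrays, by genotype, treatment and time; points are arrays, filled for P4 and open for vehicle, blue for wild type (WT) and red for PRKO, and black lines are means of 3. Hdc, Lrp2, Cdh16 and Mycn separate all wild-type from all PRKO arrays, while the Sult1d1 signals of wild-type P4 arrays at 4 h (190.3 to 256.2) overlap those of the PRKO arrays (124.7 to 238.5).

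The rule of choice used no array of P4-treated uteri, so the genotype difference was tested there, with limma on the 12 P4 arrays and Benjamini-Hochberg adjustment over all 12422 probe sets. Earlier results of these data were known when the genes and tests were chosen. The genotype difference was present again for 4 of the 5 genes at 4 h and for all 5 at 40 h, each time in the direction seen in vehicle uteri. Over all probe sets 1.27% passed at 4 h and 2.29% at 40 h, and 0.499% passed in one direction at both times. Of the 158 probe sets that passed at 4 h, 100 (0.805% of all) were lower and 58 (0.467%) higher in PRKO uteri. Of the 284 at 40 h, 130 (1.05%) were lower and 154 (1.24%) higher, and 91 and 203 when the arrays were left unscaled. The 4 h count was 100, 91 and 105 without wild-type replicates 1 and 2 or PRKO replicate 1 of that time. The 40 h count was 105, 67 and 159 without wild-type replicates 1, 2 and 3, and 125 and 63 without PRKO replicates 1 and 2.

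Hdc gave 2035, 2401 and 1682 on wild-type and 508.8, 436.3 and 421.7 on PRKO arrays 4 h after P4. At 40 h it gave 2127, 1736 and 2236 on wild-type and 699.1, 766.2 and 592.1 on PRKO arrays. The lowest wild-type array lay far above the highest PRKO array at both times, and non-overlap in either direction was met by 10.5% of probe sets at 4 h and 32% at 40 h. The difference was −2.06 ± 0.14 at 4 h, a 4.18-fold lower offset signal in PRKO uteri (adjusted p = 5.41e-06), and −1.56 ± 0.14 at 40 h (adjusted p = 4.45e-05).

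Lrp2 gave 524.8, 592.4 and 588.9 on wild-type and 169.5, 121.1 and 152.8 on PRKO arrays 4 h after P4. At 40 h the wild-type arrays gave 1071, 870.4 and 1069, and the PRKO arrays 189.6, 164.1 and 160.2. The megalin transcript thus had its highest signals of the study in wild-type uteri at 40 h, while the PRKO arrays lay between 121.1 and 189.6 over both times. The difference was −1.73 ± 0.12 at 4 h (adjusted p = 5.19e-06) and −2.38 ± 0.12 at 40 h, the largest of the 5 genes (adjusted p = 9.67e-08).

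Cdh16 gave 249.9, 239.6 and 190.7 on wild-type and 395, 433.1 and 505.6 on PRKO arrays 4 h after P4. At 40 h it gave 179.2, 184.6 and 185.9 on wild-type and 460.3, 508.5 and 460.8 on PRKO arrays. The cadherin transcript was higher in every PRKO array. The difference was 0.89 ± 0.10 at 4 h (adjusted p = 0.000455) and 1.20 ± 0.10 at 40 h (adjusted p = 3.62e-05).

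The brighter Mycn probe set gave 192.2, 229.1 and 182.2 on wild-type and 308.6, 360.1 and 307 on PRKO arrays 4 h after P4, and 169.5, 187.9 and 190.2 against 320.5, 306.3 and 258.6 at 40 h. Again no array of either genotype lay within the range of the other. The difference was 0.63 ± 0.10 at 4 h (adjusted p = 0.0072) and 0.57 ± 0.10 at 40 h (adjusted p = 0.0169). Fitted on the arrays of 4 h alone, the 4 h difference missed the threshold (adjusted p = 0.0592). At 40 h it missed it without wild-type replicate 1 or 2 or PRKO replicate 1 or 2 of that time (adjusted p = 0.0714, 0.0611, 0.0647 and 0.097). The dim Mycn probe set gave 0.02 ± 0.10 and 0.04 ± 0.10 (adjusted p = 0.98 and 0.85).

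Sult1d1 differed from the others at 4 h. Its signal 4 h after P4 was 190.3, 238.3 and 256.2 on wild-type and 181.9, 230.7 and 238.5 on PRKO arrays, so the genotypes overlapped. The difference of −0.05 ± 0.13 did not pass (adjusted p = 0.964), with a 95% interval of −0.34 to 0.24. At 40 h the signal was 349.4, 379.9 and 321.8 on wild-type and 138.4, 204 and 172.9 on PRKO arrays, with no overlap and a difference of −0.95 ± 0.13 (adjusted p = 0.00251). The change of the genotype difference from 4 h to 40 h was −0.90 ± 0.19, which did not pass over all probe sets (adjusted p = 0.102, unadjusted p = 0.000366 by limma). That adjusted p ran from 0.0617 to 0.254 when single P4 arrays were left out. With all 24 arrays in the fit it was 0.029. The spread of that fit draws on the vehicle arrays that chose the genes, so nothing is read from it.

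**Figure D2:**
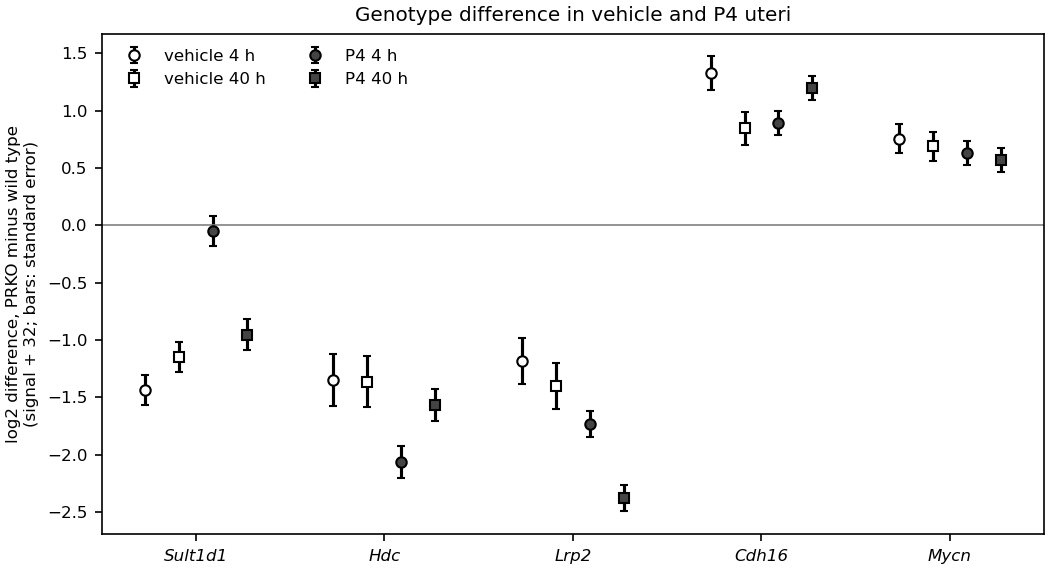
Log2 difference of signal + 32, PRKO minus wild type, for each gene in vehicle (open) and P4 (filled) uteri at 4 h (circles) and 40 h (squares), 3 arrays against 3; bars are standard errors, from all 24 arrays for vehicle and from the 12 P4 arrays for P4. All values shown for a gene, for Mycn those of the brighter probe set, lie on one side of 0. The Sult1d1 value at 4 h under P4, −0.05 ± 0.13, is the one near 0.

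The time difference of the genotype effect under P4 was tested for the other genes too, in a comparison where 0.193% of probe sets passed. None of the 5 genes passed. It was 0.50 ± 0.20 for Hdc (limma adjusted p = 0.38), −0.65 ± 0.16 for Lrp2 (adjusted p = 0.189), 0.30 ± 0.14 for Cdh16 (adjusted p = 0.415) and −0.06 ± 0.15 for the brighter Mycn probe set (adjusted p = 0.87). The 95% intervals were wide, 0.07 to 0.93 for Hdc and −0.998 to −0.294 for Lrp2. They were −0.0073 to 0.617 for Cdh16 and −0.38 to 0.26 for the brighter Mycn probe set. In the same order the unadjusted p by limma was 0.0265, 0.0016, 0.0548 and 0.679. The adjusted p-values therefore do not show that the times were alike.

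A test that uses each gene alone was also run, permuting genotype labels within each time over the 12 P4 arrays. Averaged over both times, Hdc (−1.81), Lrp2 (−2.06), Cdh16 (1.05) and the brighter Mycn probe set (0.60) each reached the smallest p that the 400 regroupings can give (exact two-sided permutation p = 0.005). Sult1d1 averaged −0.50 (exact permutation p = 0.025), which became 0.055 without wild-type replicate 3 or PRKO replicate 1 of 4 h. The dim Mycn probe set averaged 0.03 (exact permutation p = 0.705). Over vehicle and P4 arrays together, the 12 wild-type and 12 PRKO arrays did not overlap for Hdc, Lrp2, Cdh16 and the brighter Mycn probe set, and this separation was met by 18 probe sets in all (0.145%). Since the choice used the vehicle arrays, nothing is read from that share.

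The effect of P4 within a genotype shares the vehicle arrays that chose the genes and is given as a description. Sult1d1 had a mean signal of 474.2 ± 43.4 (SD, n = 3) after vehicle and 228.3 ± 34.1 after P4 in wild-type uteri at 4 h, a log2 difference of −0.98 ± 0.13. All 3 P4 arrays were below all 3 vehicle arrays, as for 7.66% of all probe sets in either direction. In PRKO uteri the same injection went with a difference of 0.41 ± 0.13, from 156 ± 33 to 217.1 ± 30.7, with overlapping arrays (4.31% of probe sets did not overlap there). At 40 h both were near 0, −0.18 ± 0.13 in wild-type and 0.02 ± 0.13 in PRKO uteri.

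Hdc was higher after P4 in wild-type uteri at both times, by 0.66 ± 0.23 at 4 h and 0.79 ± 0.23 at 40 h, with no overlap between P4 and vehicle arrays at either time (20.2% of probe sets at 40 h). In PRKO uteri it lay at 477.7 ± 100 after vehicle and 455.6 ± 46.6 after P4 at 4 h, a difference of −0.05 ± 0.23. At 40 h the PRKO means were 440.8 ± 96.4 and 685.8 ± 87.8, a difference of 0.58 ± 0.23, and all 3 P4 arrays lay above all 3 vehicle arrays, as for 20.1% of probe sets in either direction. The transcript of the histamine-forming enzyme thus had a higher mean after repeated P4 in both genotypes.

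Lrp2 was higher after P4 in wild-type uteri by 0.54 ± 0.20 at 4 h, where the arrays overlapped, and by 1.11 ± 0.20 at 40 h, where they did not. In PRKO uteri the differences were −0.01 ± 0.20 and 0.13 ± 0.20, with overlap at both times. Cdh16 differed by 0.24 ± 0.15 and −0.37 ± 0.15 in wild-type uteri and by −0.19 ± 0.15 and −0.02 ± 0.15 in PRKO uteri at 4 h and 40 h, and its arrays were separate in wild-type uteri at 40 h. The brighter Mycn probe set ranged from −0.05 ± 0.12 (wild type, 4 h) to −0.23 ± 0.12 (PRKO, 40 h). In the last of these the P4 and vehicle arrays did not overlap. The dim Mycn probe set ranged from −0.05 ± 0.10 to 0.07 ± 0.10, with overlap in each comparison. Between the P4 groups of 4 h and 40 h, wild-type arrays were separate for Sult1d1, Lrp2 and Cdh16 (27.9% of probe sets), and PRKO arrays for Hdc (18%).

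**Figure D3:**
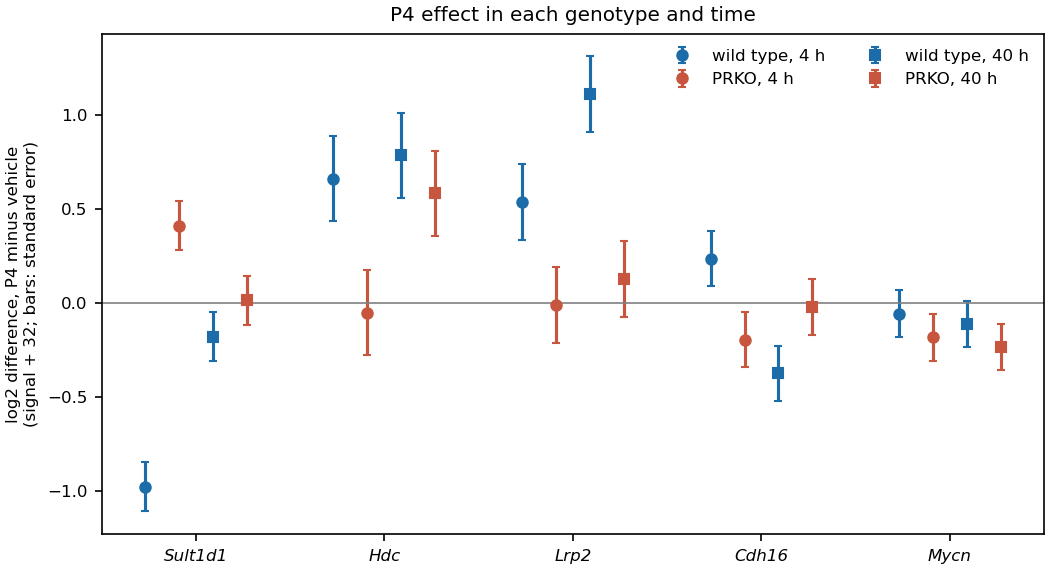
Log2 difference of signal + 32, P4 minus vehicle, in wild-type (blue) and PRKO (red) uteri at 4 h (circles) and 40 h (squares), 3 arrays against 3; bars are standard errors from the fit of all 24 arrays. Sult1d1 in wild-type uteri at 4 h (−0.98 ± 0.13) and Lrp2 in wild-type uteri at 40 h (1.11 ± 0.20) lie farthest from 0.

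In wild-type uteri at 4 h the vehicle array of high Gapdh ratio had the lowest Hdc and Lrp2 signals of its group, and the P4 array of high ratio the highest. Without the vehicle array alone, an alternative chosen after the data were seen, the 4 h P4 effect was 0.42 ± 0.23 for Hdc and 0.32 ± 0.20 for Lrp2. Without the P4 array alone it was 0.53 ± 0.25 and 0.50 ± 0.23. Without both, it was 0.28 ± 0.25 for Hdc and 0.28 ± 0.23 for Lrp2, and −1.05 ± 0.16 for Sult1d1. Under P4, leaving out wild-type replicate 2 of 4 h gave genotype differences of −1.93 for Hdc, −1.69 for Lrp2 and 0.94 for Cdh16. It gave 0.72 for the brighter Mycn probe set, and all of these passed. For Sult1d1 it gave −0.01, which did not pass.

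Ranked by mean signal, the 8 groups of Hdc and Lrp2 began with the 4 wild-type groups. Those of Cdh16 and the brighter Mycn probe set began with the 4 PRKO groups. For Hdc, wild-type P4 at 4 h (2039 ± 359) and 40 h (2033 ± 263) overlapped each other. The next in order, wild-type vehicle at 4 h, lay below wild-type P4 at 40 h, and the vehicle group of 40 h reached up to 1703, above the lowest wild-type P4 array of 4 h (1682). Below them came PRKO P4 at 40 h, apart from its neighbours, and then the other PRKO groups, which overlapped. For Lrp2, wild-type P4 at 40 h (1003 ± 115) stood alone at the top. Wild-type P4 at 4 h (568.7 ± 38.1) overlapped wild-type vehicle, and the 4 PRKO groups overlapped in sequence between 147.8 and 171.3. For Cdh16 the PRKO groups ran from 522.3 down to 444.6 and the wild-type groups from 249.9 down to 183.2, and for Mycn from 373.1 to 295.2 and from 209.7 to 182.5, with overlap between all neighbours inside a genotype. For Sult1d1 wild-type vehicle at 4 h and 40 h and wild-type P4 at 40 h came first, with means from 474.2 down to 350.4 and each overlapping the next, and wild-type P4 at 4 h lay with the PRKO groups between 228.3 and 156.

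How 2 genes varied together among arrays of the same group was not used in the choice. The vehicle arrays, whose values made the choice, are 12 of the 24 arrays used here. Over the 24 arrays, deviations of log2 signal from the group mean correlated at r = 0.78 (Spearman rho = 0.73) between Hdc and Lrp2, the highest of the 10 pairs. The value was 0.65 without the 2 arrays farthest from the Hdc median, 0.85 over the 12 vehicle arrays and 0.48 over the 12 P4 arrays. Lrp2 and Cdh16 deviated in opposite directions (r = −0.64), and Cdh16 and Mycn together (r = 0.48). Sult1d1 followed none of the others closely, between −0.41 with Lrp2 and 0.21 with Cdh16. The points share arrays and pools, and these correlations are a description.

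**Figure D4:**
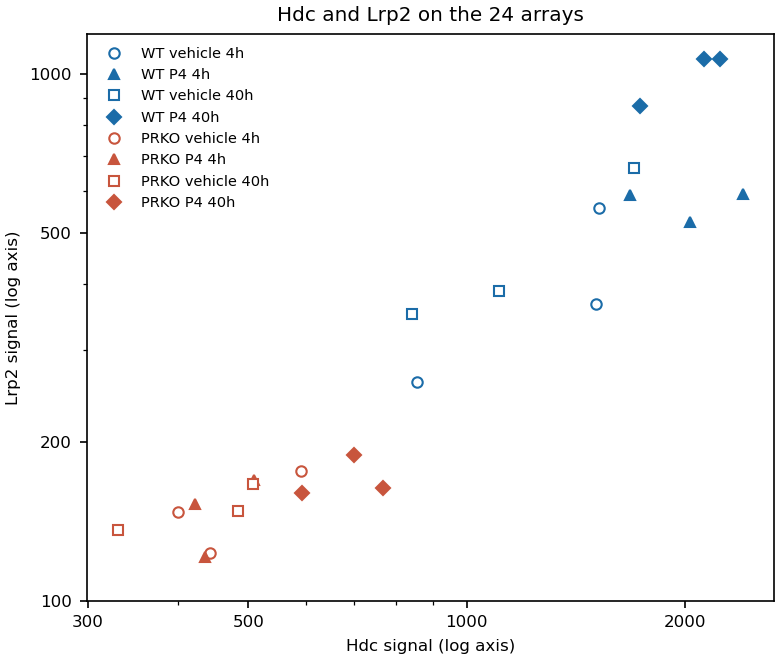
Signal of Hdc against Lrp2 (both log axes) on the 24 arrays; blue is wild type (WT), red is PRKO, filled is P4, and shapes mark treatment and time. The PRKO arrays lie at Hdc signals of 330.4 to 766.2 and Lrp2 signals of 121.1 to 189.6, and the wild-type arrays at 840 to 2401 and 260.1 to 1071.

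The same deviations were set beside signs of sample make-up. Mycn deviated with the log2 Gapdh ratio (r = 0.71, and 0.58 without both arrays of high ratio) with the mean of smooth muscle markers (r = 0.62) and of epithelium markers (r = 0.51), and against that of stroma markers (r = −0.64). Lrp2 deviated against, and Cdh16 with, the mean of uterine epithelium markers (r = −0.55 and 0.59). Cdh16 also deviated with smooth muscle markers (r = 0.54) and the log2 Gapdh ratio (r = 0.41). Hdc and Lrp2 deviated against macrophage and neutrophil markers (r = −0.67 and −0.49), and Hdc hardly with mast cell markers (r = −0.17). Their part in the genotype differences was not tested, and fewer cells of a type and less RNA per cell cannot be told apart in these whole uteri.

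Probe sets with the most similar pattern over the 24 arrays were taken among single-gene probe sets of at least median signal, with no test, since much of the likeness is the genotype difference itself. Those nearest to Hdc were Lrp2 (Pearson r = 0.95), the secreted phospholipase Pla2g10 (0.91) and the sodium pump subunit Atp1b1 (0.91). Those nearest to Lrp2 were the homeodomain protein gene Hopx (0.95), Hdc and Pla2g10 (0.93). Pla2g10 gave 371.4 to 1065 on wild-type and 284 to 398.2 on PRKO arrays, with a log2 genotype difference under P4 of −1.45 ± 0.11 at 4 h. Hopx gave 773.4 to 1397 and 659.6 to 714. Atp1b1 had differences of −1.34 and −0.91, while its other, dimmer probe set gave −0.01 and −0.05.

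Nearest to Mycn were Cdh16 (r = 0.91), the replication helicase subunit Mcm3 (0.88) and the tissue plasminogen activator Plat (0.87). Nearest to Cdh16 were the sialyltransferase St6gal1 (0.86), Plat (0.86) and Mcm3 (0.85). Plat gave 2837 to 3511 on wild-type and 3651 to 4820 on PRKO arrays, and Mcm3 409.3 to 501.5 and 521.5 to 640.8. Both thus separated the genotypes on every array, which a pick by likeness to Cdh16 and Mycn favours. The Mcm3 differences under P4 were 0.35 and 0.31, neither of which passed (limma adjusted p = 0.051 and 0.0542). They were 0.26 and 0.07 at its dimmer probe set. Those of St6gal1 were 0.21 at 4 h and 0.35 at 40 h, but 0.07 and −0.32 at its dimmer probe set. Sult1d1 had weaker neighbours, the smooth muscle gene Tagln (r = 0.77), Mt2 (0.74) and the galactose mutarotase Galm (0.70). The Galm probe sets spread from −0.08 to −0.67 in log2 genotype difference under P4 at 4 h.

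Relatives and partners of the genes were compared between the genotypes under P4 by limma, where 1.27% of all probe sets passed at 4 h and 2.29% at 40 h. Of 14 measured genes of sulfation, none passed at 4 h and 1 at 40 h, the sulfate donor synthase Papss2 (0.46 ± 0.10, adjusted p = 0.0387). At an unadjusted p under 0.05 there were 1 and 4, where 8.2% and 23.2% of all probe sets had one, and the list medians of −0.03 and −0.06 lay beside 0.01 and −0.05 over all probe sets. Papss2 no longer passed when any single 40 h array but wild-type replicate 3 was left out, or wild-type replicate 1 or PRKO replicate 3 of 4 h. The brightest of the list, the donor synthase Papss1 and the tyrosine sulfotransferase Tpst1, differed by 0.20 and −0.01 at 40 h. Of 11 measured genes of histamine handling and other amine synthesis, none passed at either time, and 0 and 1 had an unadjusted p under 0.05. The monoamine oxidase Maoa differed by −0.09 and the histamine-degrading oxidase Aoc1 by 0.07 ± 0.09 at 40 h.

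Of 18 measured relatives, partners or cargo of megalin, none passed at 4 h and 2 at 40 h, and 0 and 7 had an unadjusted p under 0.05. At 40 h the retinol carrier Rbp4 was higher (0.98 ± 0.20, adjusted p = 0.03) and the sorting receptor Sorl1 lower in PRKO uteri (−0.33 ± 0.08, adjusted p = 0.0406). Neither passed without wild-type replicate 1 or 2 or PRKO replicate 1 or 2 of 40 h, and 1 gene of the list passed without replicate 3 of either genotype of 40 h, wild-type replicate 1 or PRKO replicate 3 of 4 h, or with unscaled or quantile-normalized arrays. Cubn, the megalin partner cubilin, had a mean signal of 147.2 and differed by −0.26 ± 0.09 (adjusted p = 0.119). Of 21 measured cadherins, catenins and desmosome genes, 2 passed at 4 h and 3 at 40 h, all higher in PRKO uteri, and 5 and 9 had an unadjusted p under 0.05. In this group the desmosomal Dsp (0.90 ± 0.11, adjusted p = 0.000585) and the catenin Ctnnd2 (0.51 ± 0.10, adjusted p = 0.0212) were higher in PRKO uteri at 4 h. Both passed at 40 h too, with the desmosomal cadherin Dsc2 (0.84 ± 0.11, adjusted p = 0.00094, but 0.28 at its other probe set). The 4 h count was 1 without wild-type replicate 1, 2 or 3 or PRKO replicate 1 or 3 of 4 h, and the 40 h count was 1 without wild-type replicate 1 or 2 or PRKO replicate 2 of 40 h. The other Dsp probe set, near the floor of the array, gave −0.15 and −0.12. Of 22 measured genes of the Myc network, 2 and 6 had an unadjusted p under 0.05. None passed at 4 h and Mycl, the L-Myc gene, was higher at 40 h (0.42 ± 0.08, adjusted p = 0.0254), a call lost when any one of the 40 h arrays was left out.

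Markers of cells and tissues that could carry these transcripts were examined because Lrp2 and Cdh16 are known from kidney and Hdc from mast cells. Of 22 measured kidney markers, 1 passed at 4 h, the fatty acid transporter Slc27a2 (−0.66 ± 0.07, adjusted p = 0.000186), and none at 40 h. At an unadjusted p under 0.05 there were 2 and 6, where 8.2% and 23.2% of all probe sets had one. The kidney markers ranged from percentile 3.16 of mean signal (Kap), with Umod at 5.06, to 77.3 (Cyp4b1) and 95 (Pvalb), and the summed kidney signal ran from 7863 to 9738 over all 24 arrays, with overlap between the genotypes under P4 at both times. Of 15 measured mast cell markers, 1 passed at 4 h, the transcription factor Gata2 (−0.75 ± 0.09, adjusted p = 0.000914), which is not confined to mast cells, and none at 40 h, with 3 and 4 at an unadjusted p under 0.05. The list medians were −0.0003 at 4 h and −0.13 at 40 h, beside 0.01 and −0.05 over all probe sets. The mast cell proteases Cpa3 and Cma1, named after their values were seen, differed by −0.35 ± 0.15 and −0.29 ± 0.08 at 40 h. Neither passed. Under P4 at 4 h the summed mast cell signal was 6471 to 6963 for wild type against 5303 to 5571 for PRKO, and at 40 h 5808 to 6174 against 5273 to 5752. After vehicle it was 5563 to 5697 against 5301 to 5405 at 4 h, and the genotypes overlapped at 40 h. Without Gata2, left out after its values were seen, the P4 sums overlapped at 4 h (3732 to 4051 against 3570 to 3842) and did not at 40 h (3824 to 4048 against 3372 to 3807). The vehicle sums without Gata2 overlapped at both times. Of single probe sets, 6.52% did not overlap between the genotypes after vehicle at 4 h. Under P4 the share was 10.5% at 4 h and 32% at 40 h. The part of mast cells in the Hdc difference was not tested. Of 15 macrophage and neutrophil markers none passed at 4 h and 1 at 40 h, Cd14, lower in PRKO uteri (−0.54, limma adjusted p = 0.0253), with 2 and 8 at an unadjusted p under 0.05 and medians of 0 and −0.19. The Cd14 call was lost without wild-type replicate 1 or 2 or PRKO replicate 1 or 2 of 40 h, and without PRKO replicate 2 of 4 h the counts were 2 and 3. Their summed signal under P4 was 5476 to 5851 for wild type against 4697 to 5241 for PRKO at 4 h, and 6083 to 6227 against 5192 to 5318 at 40 h. After vehicle it was 5789 to 6598 against 4923 to 5579 at 4 h, and the genotypes overlapped at 40 h. The part of these cells in the Hdc difference was not tested. No listed marker was at 0 on average, and no detection calls were used.

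Markers of the uterus itself were present on every array, with summed signals of 15780 to 20600 for 22 epithelium, 30700 to 51700 for 17 stroma and 39740 to 52740 for 11 smooth muscle markers. At 40 h the epithelium sums after vehicle were 19040 to 20020 for wild type against 16760 to 17920 for PRKO. Under P4 at 40 h they were 15810 to 17410 against 17770 to 18790, the other way round. At 4 h the genotypes overlapped after either treatment. The stroma sums overlapped except under P4 at 40 h, 46440 to 51700 against 43440 to 45280. Of single probe sets, 10.7% did not overlap between the genotypes after vehicle at 40 h. Under P4 the share was 10.5% at 4 h and 32% at 40 h. Of the epithelium markers, 5 passed at 4 h under P4, with Dsp, Tspan8, Krt18 and Elf3 higher and the tight junction gene Cldn3 lower in PRKO uteri (−1.09 ± 0.14, limma adjusted p = 0.000914), and 3 passed without wild-type replicate 2. At an unadjusted p under 0.05 there were 11 at each time. At 40 h Tspan8, Krt7 and Dsp were higher and Cldn3 (−0.95 ± 0.14, adjusted p = 0.00308) lower, and 2, 1 and 2 passed without wild-type replicate 1 or 2 or PRKO replicate 2. By limma none of the stroma markers passed at 4 h and 3 passed at 40 h (Thy1 higher, Col1a1 and Col1a2 lower), with 3 and 9 at an unadjusted p under 0.05. The 40 h stroma count was 0 without wild-type replicate 2 or 3 or PRKO replicate 2 or 3 of 40 h, and 1 without PRKO replicate 1 of 40 h or wild-type replicate 1 or PRKO replicate 3 of 4 h. By limma no smooth muscle marker passed at either time, with 0 and 5 at an unadjusted p under 0.05. Their summed signal under P4 was 45300 to 47700 for wild type against 41950 to 43730 for PRKO at 4 h. Under P4 at 40 h it was 48550 to 52740 against 44030 to 46420. In vehicle uteri it overlapped at 4 h and was 42310 to 45140 against 39740 to 41960 at 40 h. At 40 h under P4, 5 of 11 adipose markers were also higher in PRKO uteri, Adipoq by 1.27 ± 0.25 (adjusted p = 0.0237), and their summed signal was 6620 to 11130 for wild type against 14090 to 16580 for PRKO. The count was 0 without wild-type replicate 1 or 2 or PRKO replicate 1, 1 without PRKO replicate 2 or 3 of 40 h, and 3 without PRKO replicate 3 of 4 h. At 4 h no adipose marker passed by limma, and 0 at 4 h and 9 at 40 h had an unadjusted p under 0.05. The low adipose sums were those of wild-type P4 uteri at 40 h, and no array of another group lay below 13530. In vehicle uteri at 40 h the sums overlapped, 15230 to 18020 for wild type against 17020 to 19140 for PRKO. The part of fat, epithelium, smooth muscle or any other tissue in the genotype differences of the 5 genes was not tested.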

How the data were processed

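Signal was measured on 24 Affymetrix arrays, and the deposited values are intensity on a linear scale, 1 per probe set. The submitters' processing notes name MAS5, without version, settings or scaling. Of 12488 probe sets, 66 controls were left out and 12422 tested. By the platform annotation 10833 name a single gene, 396 several and 1193 none, and the gene identifiers of 10817 matched RefSeq.

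Arrays were scaled so that the mean, trimmed by 2% at each end, was 500 (scale factors from 0.954 to 1.03), and log2 was taken of scaled signal + 32. Genotype differences were tested on the 12 P4 arrays with limma 3.58.1 in R 4.3.3 (two-sided moderated tests, intensity trend, 8 residual and 5.07 prior degrees of freedom), adjusted by Benjamini-Hochberg with a threshold of 0.05. Vehicle differences and P4 effects come from 1 fit of all 24 arrays (16 residual degrees of freedom) and are descriptions; adjusted p-values of that fit serve only to describe the choice of the genes. The number of arrays limits the precision. The procedure was tested on simulated data.

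The members, lists and tests were chosen with earlier results of these data known. Lists used the brightest probe set per gene, and up to 4 passing genes per list were named, with the 3 probe sets most like each member; Elf3, Cubn and the mast cell and kidney markers without a call were named after their values were seen. Alternatives changed the offset, scaling, dim filter, variance trend and arrays, and added a replicate block.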

Additional observations from a re-analysis of the deposited data

How the results depend on the processing

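Over the offsets, scalings, dim filter, variance trend and sets of arrays tried, Hdc, Lrp2 and Cdh16 kept direction and call in P4 uteri at both times. With single P4 arrays left out, the 4 h differences ran from −2.19 to −1.93, −1.82 to −1.62 and 0.79 to 0.97, and the 40 h differences from −1.67 to −1.46, −2.47 to −2.33 and 1.16 to 1.22. Sult1d1 ran from −0.1698 to 0.0521 at 4 h, where it turned to 0.0262 and 0.0521 without wild-type replicate 3 and PRKO replicate 1, and from −1.06 to −0.84 at 40 h, where it kept its call. The brighter Mycn probe set ran from 0.56 to 0.72 at 4 h and 0.50 to 0.65 at 40 h, with adjusted p up to 0.0448 and 0.097. With arrays of 1 time alone, its 4 h difference of 0.63 had an adjusted p of 0.0592. The dim Mycn probe set, left out by the dim filter, moved between −0.0466 and 0.103 at 4 h and −0.0156 and 0.1175 at 40 h.

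Averaged over both times, the values ran from −0.56 to −0.44 for Sult1d1 (exact permutation p up to 0.055, at −0.46 and −0.45), −1.88 to −1.75 for Hdc, −2.10 to −2.00 for Lrp2, 0.99 to 1.08 for Cdh16, and 0.56 to 0.64 and −0.0056 to 0.0692 for the 2 Mycn probe sets.

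The time difference under P4 ran from −1.01 to −0.78 for Sult1d1, 0.36 to 0.63 for Hdc, −0.76 to −0.56 for Lrp2 and 0.23 to 0.41 for Cdh16. For the brighter Mycn probe set it ran from −0.1564 to 0.0242, and it was 0.0149 after quantile normalization. For the dim one it ran from −0.0677 to 0.0992. The Sult1d1 value of −0.90 passed with all 24 arrays in the fit (adjusted p = 0.029). That fit draws its spread in part from the vehicle arrays that chose the gene, so nothing is read from it.

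The counts of 158, 284 and 24 passing probe sets ran from 91 to 175, 63 to 422 and 10 to 51 with single arrays left out. They were 65 and 546 with arrays of 1 time alone, and the last was 37 with all 24 arrays. The causes were not tested.

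The replicate numbers carry no stated pairing. Deviations of same-numbered P4 arrays of the genotypes correlated at −0.19, 0.32 and 0.42 at 4 h and 0.25, −0.06 and 0.22 at 40 h, and 4 of 6 arrays at each time matched their own number best. With a replicate block the counts were 179, 344 and 39, and the Sult1d1 time difference of −0.90 had an adjusted p of 0.0162. In the exact test within numbered pairs, the smallest possible p of 0.0312 was reached by each gene except at the dim Mycn probe set. No detection calls were used, so it is unknown which dim probe sets lie at background.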
